A study of Arabidopsis thaliana with 24 samples.

Results

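The nuclear genes for the light-harvesting antenna and the photosystems of Arabidopsis leaves are described here across haploid, diploid and doubled haploid plants. There are 43 of them among the 27416 genes counted, listed by gene family and identifier; the families were picked with earlier results of these data known. Of these, 20 encode antenna proteins: 5 LHCB1, 3 LHCB2, 6 LHCB3 to LHCB6 (LHCB4 has several copies) and 6 LHCA genes. The other 23 are listed under photosystem I (13 PSA genes) and photosystem II (10 PSB genes), and are called core genes below for short. PSI-P, also named CURT1B and known for bending the thylakoid membrane, is counted with the PSA genes in all totals. All 43 were found in the tables and all passed the filter on low counts.

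Light is absorbed in the thylakoid membrane of the chloroplast by chlorophyll bound to the antenna proteins and passed to photosystem II, which splits water, and to photosystem I, which reduces ferredoxin. LHCB1, LHCB2 and LHCB3 form the trimeric antenna of photosystem II, LHCB4 to LHCB6 are the monomeric proteins between trimers and reaction centre, and LHCA proteins surround photosystem I. The reaction centre proteins themselves are made in the chloroplast, while the genes described here are nuclear, are expressed strongly in green leaves, and are known to respond to light, to the circadian clock and to signals from the plastid.

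RNA was measured by sequencing in 12 libraries, 2 for each of 6 groups. DH6, DH9 and DH14 are doubled haploids, lines whose haploid genome has been doubled, and sDH is a further group whose name the labels do not spell out. The diploid 2n and the haploid 1n are the groups they are set against, and table names in the labels carry "Col". All plants were 2 weeks old, had 2 days of stratification at 4 °C and grew on soil at 22 °C under light for 16 h and darkness for 8 h, and no other treatment is named. The labels call the material seedlings, while the extraction names leaves 6, 7 and 8. Each doubled haploid group is, by its name, a single numbered line. The labels speak of biological replicates without saying whether these were separate plants, sowings or harvests, so p-values measure only the spread between libraries. The hour of harvest is not in the labels.

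The libraries held 16484799 to 22146896 gene counts, and 1 count equalled 0.0449 to 0.0632 CPM (counts scaled to library size with TMM factors, the unit of every level given). Replicate libraries varied more than read sampling alone allows, with chi-square values divided by their degrees of freedom ranging between 3.98 (DH9) and 24.1 (1n). For the 43 genes the replicates of DH14 lay closest, at a median absolute log2 difference of 0.036, and those of 2n farthest apart, at 0.194. In 2n, the library 2n 2 was the lower one for most of them. The green leaf markers RBCS1A, RCA and CA1 together stood at 31823 to 51130.1 CPM. Of 9 root markers 7 lay under 1 CPM in every library, with PLT1, PLT2, RHD6 and EXPA7 at 0, and all 4 shoot meristem and all 4 seed markers lay under 1 CPM.

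Together the 43 genes took 15.5 ± 0.43% of the gene counts in DH6, 15.1 ± 0.042% in DH9, 16.7 ± 0.18% in DH14, 17.0 ± 0.59% in sDH, 12.1 ± 0.98% in 2n and 16.8 ± 1.12% in 1n (mean ± SD, n = 2 each). The diploid 2n stood below every other group, and 2n was the group with the lowest mean CPM for 37 of the 43 genes. The haploid 1n had the highest mean for 23 genes, sDH for 10, DH14 for 6, DH6 for 3 and DH9 for 1. The highest group mean was 1.12 times (LHCA5) to 7.92 times (LHCB2.3) the lowest, with a median of 1.59 times. The mean over the 12 libraries ran between 76.2 CPM for LHCB4.3 and 24579 CPM for LHCB1.3, and the other 42 genes were above 100 CPM in every library. In whole leaf RNA, fewer cells of a type and less RNA per cell cannot be told apart.

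**Figure D1:**
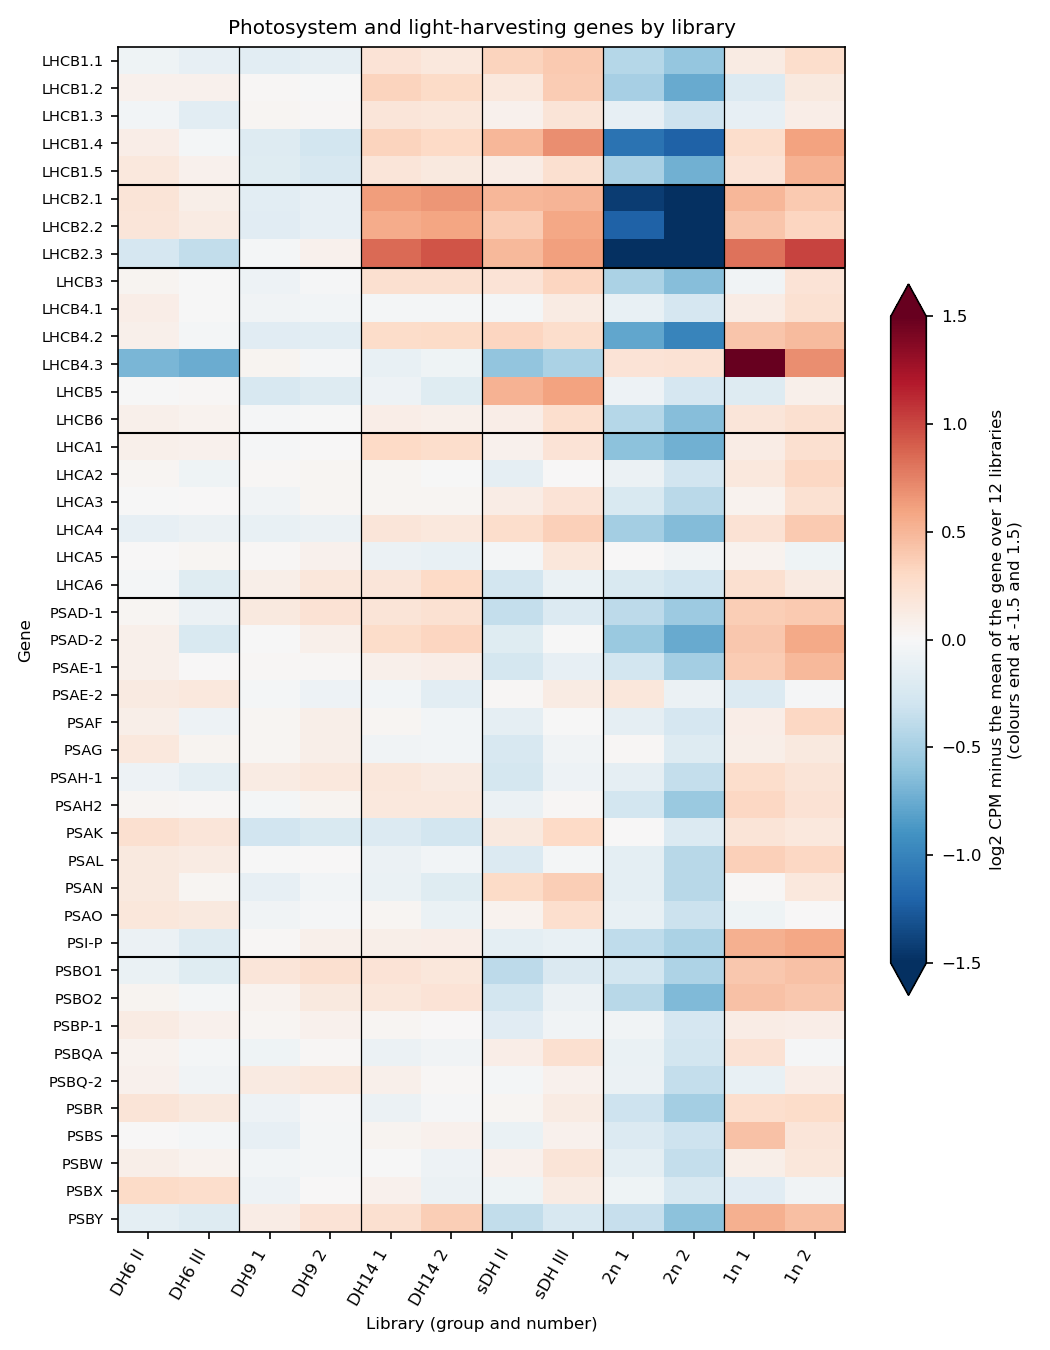
Level of each of the 43 genes (rows, ordered by role) in each of the 12 libraries (columns), as log2 CPM minus the gene's mean over the 12 libraries. The 2n libraries are blue for most genes and darkest for LHCB2.1, LHCB2.2 and LHCB2.3, and the deepest red is that of LHCB4.3 in the library 1n 1.

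Of the 12 comparisons between pairs of groups, that of 2n with 1n called the most of the 43 genes. With edgeR's quasi-likelihood test and a Benjamini-Hochberg adjusted p under 0.05, 35 of the 43 genes fell in 2n and the other 8 did not pass, where 19.9% of all 19201 genes tested fell and 21% rose. The median log2 change of the 43 genes was -0.61, against 0.0015 for all genes tested. All 3 LHCB2 genes fell, with log2 changes of -2.99 to -1.79, and so did 4 of 5 LHCB1, 5 of 6 LHCB3 to LHCB6, 5 of 6 LHCA, 10 of 13 PSA and 8 of 10 PSB genes. The median was -0.72 over the 20 antenna genes and -0.47 over the 23 core genes; the difference between these medians was not tested. The genes that did not pass were LHCB1.3, LHCB5, LHCA5, PSAE-2, PSAG, PSAO, PSBQ-2 and PSBX, with log2 changes between -0.21 (PSBQ-2) and 0.16 (PSAE-2).

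Most of the genes were higher in each doubled haploid group and in sDH than in 2n. In DH6, 28 genes rose and 1 (LHCB4.3) fell against 2n, where 11.9% of all genes tested rose and 13.2% fell. In DH9, 25 rose, against a background of 8.66% rising and 8.57% falling. In DH14, 26 rose, with 12.7% rising and 13.6% falling among all genes. In sDH, 26 rose and LHCB4.3 fell, with 15.4% rising and 15% falling among all genes. The median log2 change of the 43 genes was 0.36 for DH6 and for DH9, 0.39 for DH14 and 0.35 for sDH, while the median of all genes tested lay between 0.0050 and 0.049. The 4 comparisons share the 2n libraries and are therefore not independent of each other. The DH6 count of 29 was 17 without DH6 II and 19 without 2n 2, and the DH9 count was 16 without DH9 2.

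**Figure D2:**
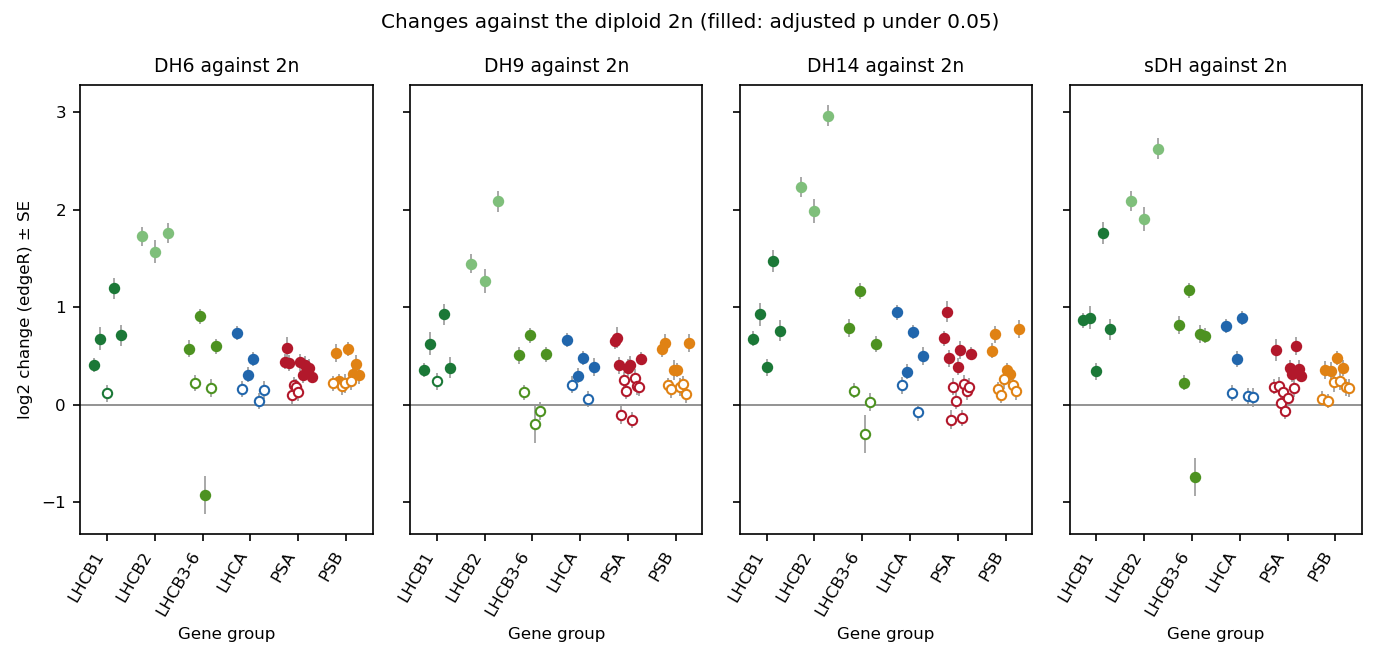
log2 change against 2n with its SE (edgeR) for the 43 genes, 1 panel for each of DH6, DH9, DH14 and sDH, genes grouped by role along the x axis; filled points have an adjusted p under 0.05. The LHCB2 genes lie highest in every panel (1.27 to 2.97), and the filled point below 0 in the panels of DH6 and sDH is LHCB4.3.

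By role, the LHCB2 genes rose against 2n in all 4 groups, 3 of 3 each time. Of the 5 LHCB1 genes 4 rose in DH6 and in DH9 and all 5 in DH14 and in sDH, and of the 6 LHCA genes 3 rose in DH6 and in sDH and 4 in DH9 and in DH14. In DH9, 2 LHCB1 and 2 LHCA genes rose without DH9 2, and 2 LHCA genes without DH9 1 or 2n 2. Among the 23 core genes, 15 rose in DH6 (median log2 change 0.31), 11 in DH9 (0.27), 11 in DH14 (0.26) and 10 in sDH (0.23), where 11.9, 8.66, 12.7 and 15.4% of all genes rose in that order. The core count was 4 in DH6 without DH6 II and 6 without 2n 2, and 6 in DH9 without DH9 2 or without 2n 2. In sDH it was 5 without sDH III or without 2n 2. Over the 20 antenna genes, 13 rose for DH6, 14 for DH9, 15 for DH14 and 16 for sDH, and without these same libraries 12 rose in DH6, 10 or 11 in DH9 and 14 in sDH. The antenna medians were 0.52 for DH6, 0.43 for DH9, 0.71 for DH14 and 0.79 for sDH. The difference between antenna and core was not tested.

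Against the haploid 1n, most of the genes that passed were lower in each of these groups. DH6 had 18 lower and 2 higher genes where 24.5% of all genes tested were lower and 22.6% higher, so that more of the 43 were lower and fewer higher than in the background. DH9 had 19 lower genes, with 14.8% of all genes lower and 15.5% higher. DH14 had 6 lower genes, with 11.8% of all genes lower and 12.2% higher, so that the lower share was near the background. In edgeR's main fit and in DESeq2, 0 were higher (1 at an unadjusted p under 0.05). LHCB1.2 passed as higher with no filter on low counts, and LHCB2.1 without 2n 1 or 2n 2. In sDH, 18 genes were lower and 1 was higher, with 24.4% lower and 24.1% higher among all genes. The median log2 change of the 43 genes was -0.20 for DH6, -0.21 for DH9, -0.14 for DH14 and -0.12 for sDH, and that of all genes tested lay between -0.012 and 0.0074. The 1n libraries are shared by all these comparisons. The DH6 count of 20 was 12 without DH6 III, the DH9 count was 11 without DH9 1, and the DH14 count was 3 without DH14 1, 12 without 1n 1, all lower, and 11 without 1n 2, of which 3 were higher.

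**Figure D3:**
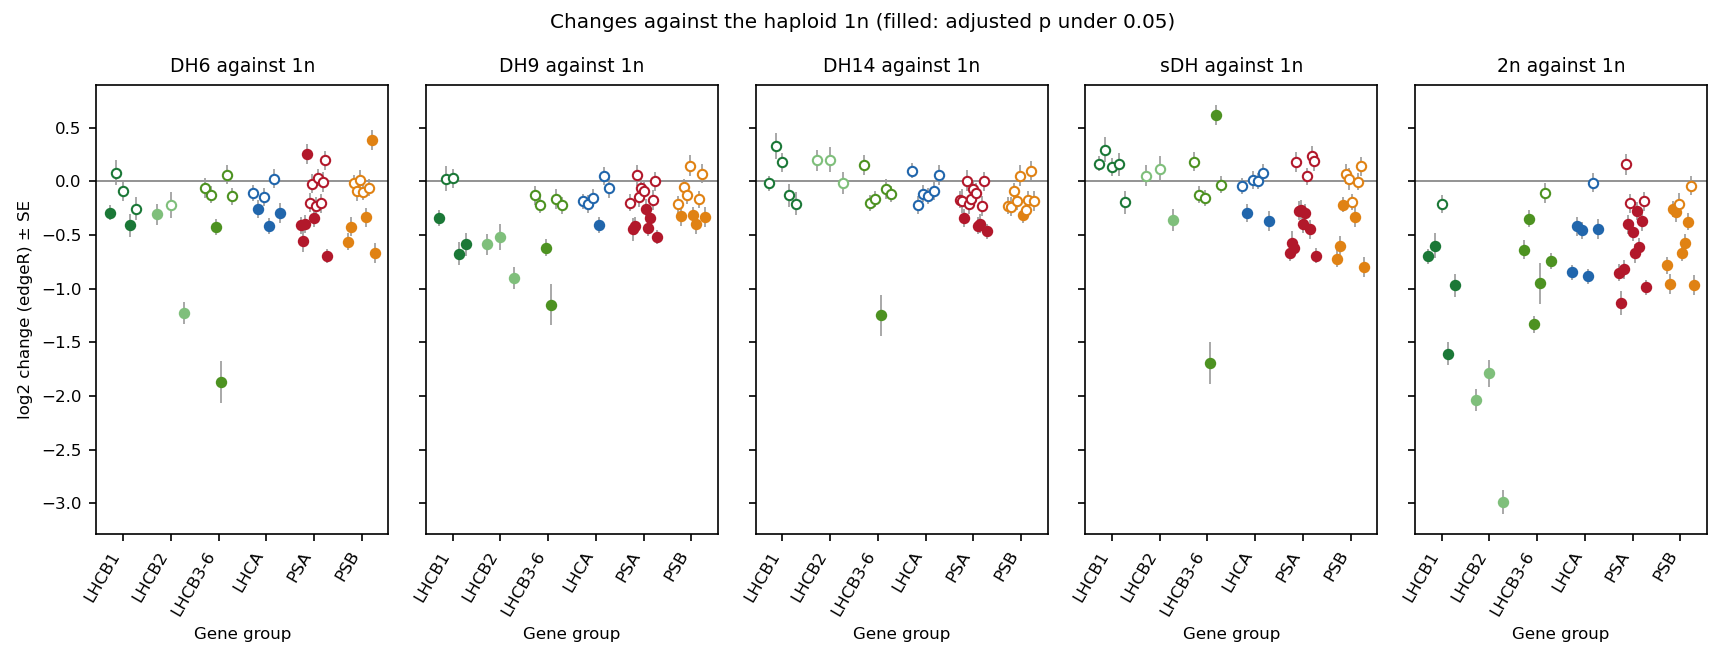
log2 change against 1n with its SE (edgeR) for the 43 genes, 1 panel for each of DH6, DH9, DH14, sDH and 2n, genes grouped by role along the x axis; filled points have an adjusted p under 0.05. Most points of 2n lie below 0, down to -2.99 for LHCB2.3, while DH14 has 6 filled points.

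In sDH against 1n, the antenna and the core genes had unlike counts. Of the 23 core genes 14 fell, with a median log2 change of -0.27, while of the 20 antenna genes 4 fell and 1 rose, with a median of 0.0079, where 24.4% of all genes fell and 24.1% rose; the antenna's 4 of 20 is near that background. Without sDH II, 9 core genes fell and 1 rose, and 1 antenna gene fell and 2 rose. Without 1n 2, 11 core genes fell and 1 rose, and 2 antenna genes fell and 6 rose. Without 2n 1, 3 antenna genes and 1 core gene rose, and without 2n 2, 2 and 1. Neither the difference of these counts nor of the medians was tested. Under scaling by total counts without TMM, the split for all 43 genes was 7 higher and 17 lower, the 6 added higher ones being LHCB1.1, LHCB1.2, LHCB3, PSAE-2, PSAN and PSAO. The same scaling gave 1 higher (LHCB1.2) and 6 lower genes in DH14 against 1n.

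Counted as a ratio of reads, antenna over core genes gave 1.79 and 1.80 in DH6, 1.77 and 1.72 in DH9, 2.08 and 2.07 in DH14, 2.33 and 2.296 in sDH, 1.64 and 1.66 in 2n, and 1.68 and 1.88 in 1n. The sDH libraries stood above all others and the DH14 libraries above the remaining 8, while the 2n libraries were the lowest; these ratios are a description, with no test. Antenna genes took 11.9 ± 0.37% of the gene counts in sDH, 7.55 ± 0.58% in 2n and 10.8 ± 1.03% in 1n. Core genes took 5.14 ± 0.21% in sDH, 4.59 ± 0.39% in 2n and 6.06 ± 0.095% in 1n (mean ± SD, n = 2 each), so that sDH lay between 2n and 1n for the core and above both for the antenna.

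**Figure D4:**
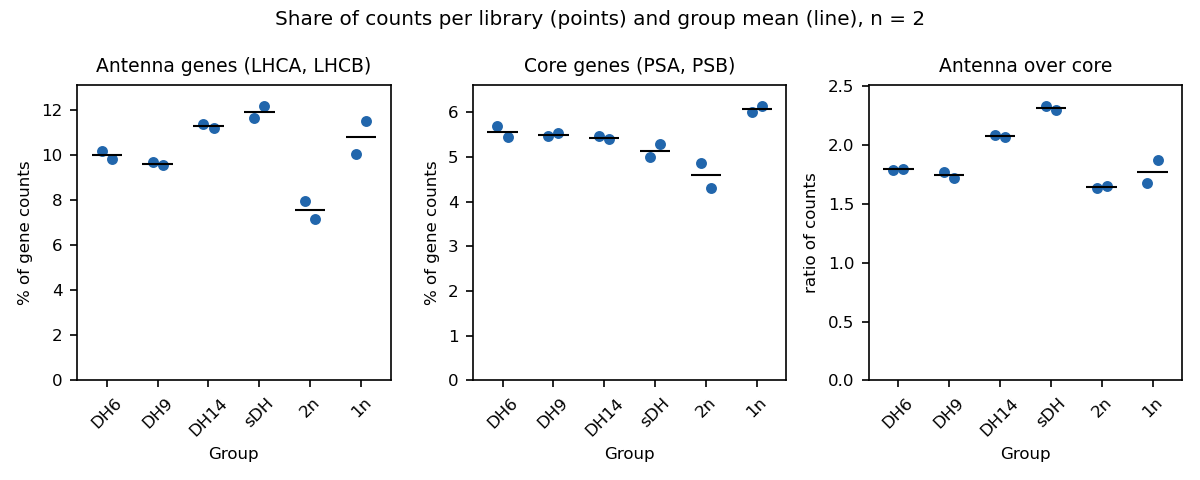
Share of gene counts in percent for the 20 antenna genes (left) and the 23 core genes (middle), and the ratio of the 2 (right), for each library (points) with the group mean (line, n = 2). The 2n points are lowest in the left panel (7.14 and 7.96%), and the sDH points are highest in the right panel (2.296 and 2.33).

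LHCB1 encodes the most abundant antenna protein of photosystem II. LHCB1.1, LHCB1.2 and LHCB1.3 are neighbours in the genome, as are LHCB1.4 and LHCB1.5, and how reads that fit several copies were counted is not given, so that single copies are uncertain. LHCB1.3 (AT1G29930), the copy with most counts, had 23837 and 21891 CPM in DH6, 24922 and 24851 in DH9, 27663 and 27409 in DH14, 25576 and 27932 in sDH, 22392 and 19723 in 2n, and 22539 and 26210.4 in 1n. Its 2n libraries overlapped with DH6 alone and lay below all others, while 1n overlapped with DH6, DH9 and sDH. LHCB1.3 rose by 0.39 ± 0.088 (adjusted p = 0.00855) in DH14 and by 0.35 ± 0.088 (adjusted p = 0.0123) in sDH against 2n on the log2 scale (edgeR), and its 2n against 1n change was -0.21 (95% interval -0.38 to -0.04, adjusted p = 0.0762). The DH14 call was lost without DH14 2 or 2n 2 (adjusted p of 0.0637 and 0.0626), and the sDH call without sDH III or 2n 2 (0.0799 and 0.0984).

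LHCB1.4 (AT2G34430) had 3645 and 3351 CPM in DH6, 2986 and 2825 in DH9, 4297 and 4197 in DH14, 4825 and 5543 in sDH, 1587 and 1467 in 2n, and 4108 and 5177 in 1n. Both 2n libraries lay below all 10 others, and 1n overlapped with DH14 and sDH. LHCB1.4 changed by -1.60 ± 0.11 (adjusted p = 1.89e-06) in 2n and by -0.68 ± 0.11 (adjusted p = 0.00093) in DH9 against 1n. Summed, LHCB1.4 and LHCB1.5 changed by -1.17 ± 0.11 (adjusted p = 1.38e-05) in 2n against 1n, and the sum of LHCB1.1 to LHCB1.3 by -0.40 ± 0.087 (adjusted p = 0.00417). LHCB1.4 and LHCB1.5 made up 14.9 ± 0.099% of all LHCB1 counts in 2n and 23.0 ± 0.91% in 1n, with the other groups between 16.9% (DH9) and 20.8% (DH6). In DH9 against 1n, the sum of LHCB1.4 and LHCB1.5 fell by 0.62 (adjusted p = 0.00156), while that of LHCB1.1 to LHCB1.3 changed by -0.07 ± 0.087 (adjusted p = 0.594) and did not pass.

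LHCB2 encodes the antenna protein that is known for its quick phosphorylation when light is shared between the photosystems. LHCB2.1 (AT2G05100) had 2799 and 2612 CPM in DH6, 2194 and 2260.5 in DH9, 3792 and 3888 in DH14, 3458 and 3483 in sDH, 916 and 718 in 2n, and 3463 and 3228 in 1n. LHCB2.2 (AT2G05070) had 2843 and 2720.5 CPM in DH6, 2215 and 2303 in DH9, 3685 and 3759 in DH14, 3268 and 3735 in sDH, 1077 and 794 in 2n, and 3346 and 3121 in 1n. These 2 genes are near-identical and were read together as well. For both, the 2n libraries were the lowest, DH9 and then DH6 came next without overlap, 1n and sDH overlapped, and DH14 had the highest mean.

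Both fell in 2n against 1n, with a log2 change of -2.03 ± 0.10 (adjusted p = 2.92e-07) for LHCB2.1 and of -1.79 ± 0.12 (adjusted p = 1.94e-06) for LHCB2.2; their summed counts changed by -1.91 ± 0.11 (adjusted p = 7.41e-07). Against 2n, LHCB2.1 rose by 1.73 ± 0.10 (adjusted p = 3.60e-06) for DH6, by 1.45 ± 0.10 (adjusted p = 1.79e-05) for DH9, by 2.23 ± 0.10 (adjusted p = 3.78e-07) for DH14 and by 2.09 ± 0.10 (adjusted p = 5.89e-07) for sDH. Against 1n, the sum of LHCB2.1 and LHCB2.2 fell in DH9 by 0.56 (adjusted p = 0.00304). The sum changed by -0.27 ± 0.11 (adjusted p = 0.059) in DH6, 0.20 ± 0.11 (adjusted p = 0.209) in DH14 and 0.08 ± 0.11 (adjusted p = 0.576) in sDH, none of which passed. Counted alone, LHCB2.1 did pass as lower in DH6 against 1n, a call lost in 4 settings.

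LHCB2.3 (AT3G27690), the copy on another chromosome, had 1020.5 and 941 CPM in DH6, 1192 and 1268 in DH9, 2197 and 2329.7 in DH14, 1707 and 1868 in sDH, 318 and 261 in 2n, and 2143 and 2442 in 1n. The group means ran, from low to high, 2n, DH6, DH9, sDH, DH14 and 1n. No libraries of neighbouring groups in that order overlapped except those of DH14 and 1n. LHCB2.3 changed by -2.99 ± 0.11 (adjusted p = 4.27e-08) in 2n against 1n, to 0.126 times the 1n level, the largest change of any of the 43 genes in the 9 comparisons against 1n or 2n. It also fell against 1n in DH6 (-1.23 ± 0.10, adjusted p = 9.93e-06) and in DH9 (-0.90 ± 0.10, adjusted p = 0.000133). In DH14 the change was -0.02 (95% interval -0.22 to 0.18, adjusted p = 0.915), and in sDH it fell by 0.36 (adjusted p = 0.0133), a call that was lost without sDH II (adjusted p = 0.0996) or 1n 2 (0.0755).

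Against 2n, LHCB2.3 rose by 1.76 ± 0.11 (adjusted p = 3.64e-06) for DH6, by 2.09 ± 0.11 (adjusted p = 4.20e-06) for DH9, by 2.97 ± 0.11 (adjusted p = 1.02e-07) for DH14 and by 2.63 ± 0.11 (adjusted p = 2.17e-07) for sDH on the log2 scale. It made up 15.2 ± 0.23% of LHCB2 counts in DH6, 21.5 ± 0.33% in DH9, 23.0 ± 0.45% in DH14, 20.4 ± 0.21% in sDH, 14.3 ± 0.70% in 2n and 25.9 ± 2.72% in 1n (mean ± SD, n = 2 each). The make-up of the LHCB2 family in DH6 thus lay near that of 2n, and the other groups held a larger part of LHCB2.3.

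**Figure D5:**
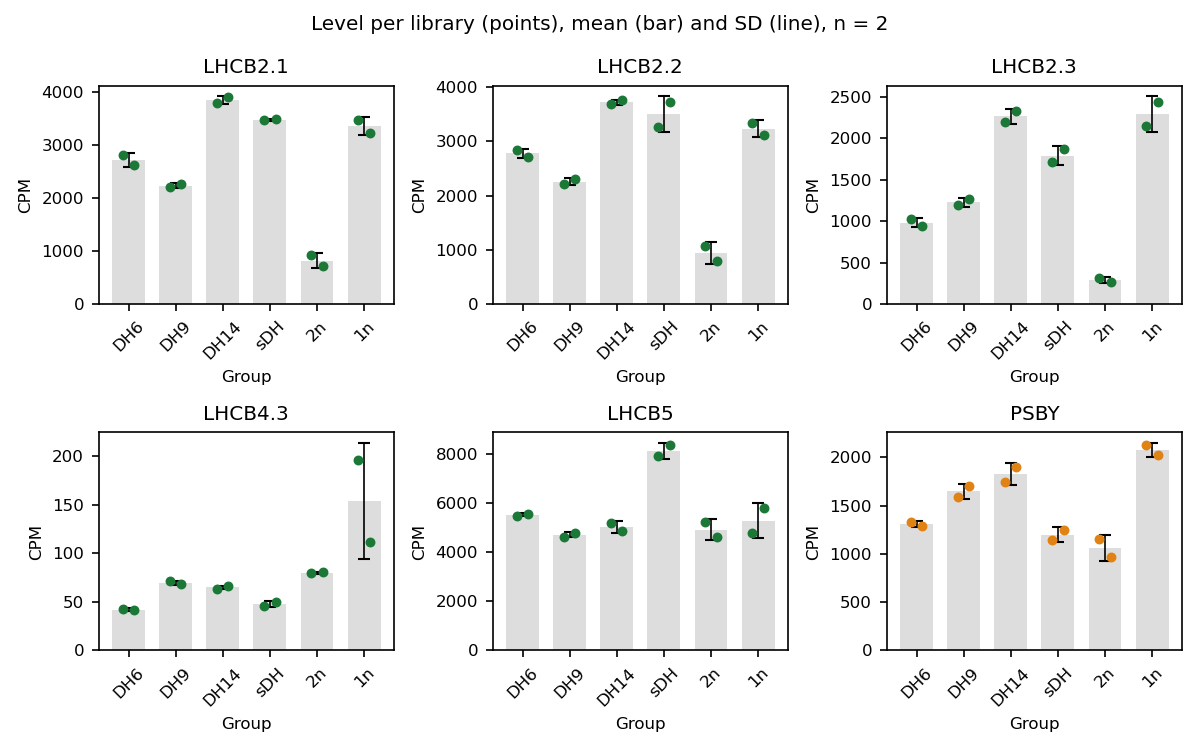
Level in CPM of LHCB2.1, LHCB2.2, LHCB2.3, LHCB4.3, LHCB5 and PSBY in each group: points are libraries, grey bars the mean and lines the SD (n = 2). The 2n bars are lowest for the 3 LHCB2 genes and PSBY, LHCB4.3 is highest in 1n (196 and 112 CPM), and LHCB5 is highest in sDH (7919 and 8377 CPM).

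LHCB3 (AT5G54270), the third protein of the trimers, had 6349 and 6147 CPM in DH6, 5825 and 6084 in DH9, 7257 and 7238 in DH14, 7107 and 7708 in sDH, 4425 and 3959 in 2n, and 5927 and 7112 in 1n. Its 2n libraries lay below all others, and it changed by -0.64 ± 0.09 (adjusted p = 0.00025) in 2n against 1n and did not pass in any other group against 1n. LHCB4.2 (AT3G08940), 1 of 3 genes for the monomeric LHCB4 protein, had 1962 and 1829.6 CPM in DH6, 1651 and 1671 in DH9, 2264 and 2279 in DH14, 2332 and 2238 in sDH, 1085 and 938 in 2n, and 2495 and 2596 in 1n. It was lowest in 2n and highest in 1n, with no overlap of either with another group. LHCB4.2 changed by -1.33 ± 0.078 (adjusted p = 7.53e-07) in 2n and by -0.62 ± 0.077 (adjusted p = 0.000223) in DH9 against 1n. It also fell in DH6 against 1n, called in every setting tried. It took 19.8 ± 0.57% of LHCB4 counts in 2n and 32.7 ± 0.40% in 1n.

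LHCB4.3 (AT2G40100), also known as LHCB8, is, with LHCB5 and LHCA5, 1 of 3 antenna genes whose lowest group was not 2n. It had 42.9 and 41.2 CPM in DH6, 70.9 and 68.0 in DH9, 63.6 and 66.0 in DH14, 45.7 and 49.6 in sDH, 79.2 and 80.2 in 2n, and 196 and 112 in 1n. No groups overlapped: the 1n libraries were above all others but differed strongly from each other, and the lowest groups were DH6 and sDH, not 2n. Against 1n, LHCB4.3 fell by 1.87 ± 0.20 in DH6 (adjusted p = 3.37e-05), 1.15 ± 0.19 in DH9 (adjusted p = 0.00129), 1.25 ± 0.19 in DH14 (adjusted p = 0.00137), 1.69 ± 0.20 in sDH (adjusted p = 5.08e-05) and 0.95 ± 0.19 in 2n (adjusted p = 0.00242) on the log2 scale. Without 1n 1, the changes were -0.68 in DH9, -0.78 in DH14 and -0.48 in 2n, with adjusted p of 0.000351, 0.000296 and 0.00206 in that order.

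Against 2n, LHCB4.3 fell in DH6 by 0.92 ± 0.19 (adjusted p = 0.0054) and in sDH by 0.74 ± 0.19 (adjusted p = 0.0137). The sDH call was lost without sDH II, sDH III, 2n 1 or 2n 2, with adjusted p of 0.0917, 0.0505, 0.0503 and 0.0589 in that order. In DH9 and DH14 the changes were -0.20 ± 0.19 (adjusted p = 0.519) and -0.30 ± 0.19 (adjusted p = 0.278), and neither passed.

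LHCB5 (AT4G10340), another monomeric antenna protein, had 5494 and 5582 CPM in DH6, 4648 and 4807 in DH9, 5212 and 4860.0 in DH14, 7919 and 8377 in sDH, 5225 and 4623 in 2n, and 4809 and 5795 in 1n. Both sDH libraries lay above the 10 others, among which 1n overlapped with DH6, DH14 and 2n. In the main fit, LHCB5 was the only 1 of the 43 genes that rose in sDH against 1n, by 0.62 ± 0.092 (adjusted p = 0.000271). Further genes rose under scaling by total counts (7 in all) and with no filter on low counts (LHCB1.2 and PSAN). Others also rose without 1n 2, 2n 1, 2n 2 or sDH II. LHCB5 rose in sDH against 2n by 0.73 ± 0.092 (adjusted p = 0.000185). In 2n against 1n its change was -0.11 (95% interval -0.29 to 0.07, adjusted p = 0.381). Of the other monomeric proteins, LHCB6 changed by -0.74 ± 0.079 (adjusted p = 3.57e-05) and LHCB4.1 by -0.35 ± 0.078 (adjusted p = 0.00459) in 2n against 1n.

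Among the LHCA genes, the antenna of photosystem I, LHCA4 (AT3G47470) had 5654 and 5782 CPM in DH6, 5728 and 5808 in DH9, 7017 and 6854 in DH14, 7419 and 7867 in sDH, 4315 and 3941 in 2n, and 7175 and 8083 in 1n. The 2n libraries were the lowest, DH6 and DH9 lay close together above them, and sDH and 1n overlapped at the top. LHCA4 fell by 0.89 ± 0.074 in 2n (adjusted p = 6.99e-06), by 0.42 in DH6 and by 0.40 in DH9 against 1n. LHCA1, LHCA2, LHCA3 and LHCA6 also fell in 2n against 1n, with log2 changes of -0.85, -0.42, -0.46 and -0.44. LHCA5, which with LHCA6 is known for linking photosystem I to the NDH complex, differed least among the groups and passed no pairwise test, with 145 to 176 CPM in the 12 libraries.

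In photosystem I, PSAF (AT1G31330), which docks plastocyanin on the lumen side, had 4169.5 and 3735 CPM in DH6, 4008 and 4164 in DH9, 3993 and 3828 in DH14, 3583 and 3921 in sDH, 3586 and 3288 in 2n, and 4213 and 4852 in 1n. The 2n libraries overlapped with sDH alone. PSAF changed by -0.40 ± 0.088 (adjusted p = 0.00415) in 2n and by -0.27 ± 0.088 (adjusted p = 0.0244) in sDH against 1n. The sDH call was lost without sDH II (-0.21, adjusted p = 0.158) or 1n 2 (-0.17, adjusted p = 0.155). The stromal subunits PSAD and PSAE, which dock ferredoxin, are encoded by 2 genes each. PSAD-2 changed by -1.14 ± 0.11 (adjusted p = 2.05e-05) and PSAD-1 by -0.85 ± 0.078 (adjusted p = 1.25e-05) in 2n against 1n.

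PSAE-2 (AT2G20260) had 576 and 583 CPM in DH6, 511 and 498 in DH9, 508 and 467 in DH14, 529 and 572 in sDH, 589.9 and 494 in 2n, and 455 and 517 in 1n. Most groups overlapped, 1n had the lowest mean, and both DH6 libraries lay above both 1n libraries. It passed in DH6 against 1n (0.25 ± 0.10, adjusted p = 0.0496), a call that was lost without any 1 of 9 libraries in turn, among them 1n 1 (0.17, adjusted p = 0.216), DH6 II (adjusted p = 0.127) and DH6 III (adjusted p = 0.157). PSAE-1, in contrast, fell in 2n against 1n by 0.82 ± 0.085 (adjusted p = 2.96e-05). PSAE-1 also fell against 1n in DH6, DH9 and sDH, called in every setting tried, and in DH14, a call lost in 3 settings. PSAE-2 made up 22.2 ± 0.21% of PSAE counts in 2n and 12.6 ± 0.41% in 1n, and 15.6 to 20.1% in the other group means.

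PSI-P (AT2G46820), a thylakoid membrane protein also named CURT1B and known for bending the membrane at the margin of grana, had 1154 and 1069 CPM in DH6, 1237 and 1285 in DH9, 1296 and 1315 in DH14, 1103 and 1129 in sDH, 939 and 878 in 2n, and 1776 and 1829 in 1n. Both 1n libraries stood above all others and both 2n libraries below. Against 1n, PSI-P fell in every other group: by 0.70 ± 0.067 in DH6, 0.52 ± 0.067 in DH9, 0.47 ± 0.067 in DH14, 0.69 ± 0.067 in sDH and 0.99 ± 0.067 in 2n, with adjusted p of 2.01e-05, 0.00028, 0.000903, 1.66e-05 and 1.89e-06 in that order. PSI-P and LHCB4.3 were called against 1n in all 5 groups and under every setting tried.

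PSAK (AT1G30380), at the edge of photosystem I where LHCA proteins attach, had 1733 and 1664 CPM in DH6, 1205 and 1255 in DH9, 1278 and 1213 in DH14, 1619.8 and 1799.7 in sDH, 1469 and 1269 in 2n, and 1678 and 1635 in 1n. DH9 and DH14 were the lowest groups here, and DH6, sDH and 1n were higher without overlap with DH9 or DH14. Against 1n PSAK fell in DH14 by 0.41 ± 0.083 (adjusted p = 0.00535) and in DH9 by 0.43 ± 0.083 (adjusted p = 0.00291), while the DH6 and sDH changes of 0.04 and 0.05 did not pass. PSAK was also called lower in 2n than in 1n (means of 1369 and 1657 CPM), a call lost in 5 settings. PSAL (AT4G12800), a subunit on the side where the photosystem II antenna can dock, had 3989 and 3919 CPM in DH6, 3580.0 and 3609 in DH9, 3401 and 3509 in DH14, 3140.2 and 3536 in sDH, 3249 and 2694 in 2n, and 4621 and 4475 in 1n. The 1n libraries were the highest, and PSAL fell in DH14 against 1n by 0.40 ± 0.088 (adjusted p = 0.00884). Without DH14 1 the fall was 0.37 and the call was lost. PSAL also fell against 1n in 2n and sDH, called in every setting tried, and in DH9, a call lost in 3 settings.

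In photosystem II, PSBO1 (AT5G66570) encodes the main protein that stabilises the manganese cluster of water splitting. It had 4784 and 4530.5 CPM in DH6, 5812 and 6055 in DH9, 5944 and 5805 in DH14, 3922 and 4429 in sDH, 4256 and 3738 in 2n, and 6791 and 6956 in 1n. The 1n libraries were highest and DH9 and DH14 followed, while 2n and sDH overlapped at the low end. PSBO1 changed by -0.78 ± 0.08 (adjusted p = 2.87e-05) in 2n, by -0.72 ± 0.08 (adjusted p = 4.01e-05) in sDH and by -0.56 ± 0.08 (adjusted p = 0.000228) in DH6 against 1n. In sDH against 2n the change of PSBO1 was 0.06 (95% interval -0.09 to 0.22, adjusted p = 0.597).

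PSBY (AT1G67740), a small membrane subunit, had 1334 and 1288 CPM in DH6, 1591 and 1705 in DH9, 1744 and 1904 in DH14, 1142 and 1252 in sDH, 1157 and 965 in 2n, and 2129 and 2022 in 1n. It ran in the same order as PSBO2, PSAD-1, PSAD-2 and PSAH-1: 2n lowest, then sDH, DH6, DH9, DH14 and 1n. PSBY fell against 1n by 0.66 ± 0.093 in DH6 (adjusted p = 0.000206), by 0.79 ± 0.093 in sDH (adjusted p = 5.64e-05) and by 0.97 in 2n (adjusted p = 1.91e-05). It was also called lower in DH9 than in 1n (means of 1648 and 2075 CPM), a call lost in 5 settings. PSBX (AT2G06520), another small subunit, had 2425 and 2376 CPM in DH6, 1872 and 1989.8 in DH9, 2074 and 1865 in DH14, 1896 and 2155 in sDH, 1897 and 1682 in 2n, and 1764 and 1913 in 1n. Both DH6 libraries lay above the 10 others, and PSBX rose in DH6 by 0.38 ± 0.09 (adjusted p = 0.00485) against 1n and by 0.42 ± 0.09 (adjusted p = 0.00584) against 2n, the call against 2n being lost without DH6 II (adjusted p = 0.0625) or 2n 2 (0.0617). PSBS, the protein that sets off the harmless release of excess light as heat, fell in 2n against 1n by 0.58 (adjusted p = 0.000519).

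The 3 doubled haploid lines differed among each other in 15 of the 43 genes by an F-test (edgeR, adjusted p under 0.05), where 25.3% of all genes tested passed. The 15 held all 3 LHCB2 genes, 3 of 5 LHCB1, 3 of 6 LHCA, 2 of 6 LHCB3 to LHCB6, 1 of 13 PSA and 3 of 10 PSB genes. The count was 6 to 9 when any 1 library of these lines was left out (6 without DH14 2, 7 without DH6 III) and 23 without 1n 1 or without 1n 2.

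DH9 against DH14 had 6 lower genes (1.55% of all genes lower, 1.56% higher): LHCB1.1, LHCB1.4, LHCB2.1, LHCB2.2, LHCB2.3 and LHCB4.2, all of the antenna. LHCB2.3 changed by -0.88 ± 0.10 (adjusted p = 0.00126) and LHCB2.1 by -0.79 ± 0.10 (adjusted p = 0.00193) there. Among the 23 core genes 0 passed in edgeR's test and 0 in DESeq2, with 1 lower at an unadjusted p under 0.05; with only the DH9 and DH14 libraries in edgeR's fit, PSAD-2 passed too. The count was 2 without either DH9 or either DH14 library and 10 without 1n 1 or without 1n 2; LHCB2.1 and LHCB2.3 passed in every setting tried.

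DH6 against DH14 had 15 lower and 3 higher genes (14.1% lower and 12.7% higher among all genes). The higher ones were PSAK, PSBR and PSBX, and all 3 LHCB2 genes were lower, LHCB2.3 with a log2 change of -1.21 ± 0.10 (adjusted p = 0.000106). The count of 18 was 10 without DH6 II, 4 without DH6 III, 5 without DH14 1 and 4 without DH14 2, and scaling by total counts gave 7 higher and 16 lower. DH6 against DH9 had 2 higher genes (PSAK at 0.47 and PSBX at 0.31) and 3 lower ones (LHCB4.3 at -0.72, PSBO1 at -0.35 and PSBY at -0.33), where 7.1% of all genes were higher and 9.33% lower. That count was 1 without DH6 II, DH6 III or DH9 2, 0 without DH9 1 (11 at an unadjusted p under 0.05), 11 without either 2n library and 12 without either 1n library; DESeq2 gave 7. An F-test among all 6 groups passed for 38 of the 43 genes, against 62% of all genes tested, and the 5 others were LHCA5, PSAE-2, PSAG, PSBQA and PSBQ-2.

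Other genes of photosynthesis were read from lists of known Arabidopsis genes, and those named from them were picked after their values were seen. Of 16 genes for the import and assembly of photosystem proteins, 10 fell and 2 rose in 2n against 1n (median log2 change -0.28), where 19.9% of all genes fell and 21% rose. HCF173, needed to translate the D1 protein, changed by -1.41 ± 0.12 (adjusted p = 1.03e-05), and cpSRP43, a chaperone of antenna proteins on their way to the thylakoid, by -1.05 ± 0.068 (adjusted p = 1.40e-06). The 2 that rose were cpSRP54 (0.35 ± 0.068, adjusted p = 0.00214) and cpFTSY (0.25 ± 0.078, adjusted p = 0.0253), which act on the same route. In sDH, cpSRP43 rose by 1.31 ± 0.068 (adjusted p = 6.09e-07) against 2n. Without 2n 2, 7 of the 16 fell and 1 rose in 2n, and without 1n 2, 9 fell and 1 rose; the gene lost from those that rose was cpFTSY both times (adjusted p of 0.121 and 0.087). Against 1n, 7 of the 16 fell and 3 rose in DH6 (24.5% and 22.6% of all genes), and 6 fell and 3 rose in sDH (24.4% and 24.1%), so that the 3 that rose lie near the background. In DH9 5 fell and 2 rose (14.8% and 15.5% of all genes; 1 rose without DH9 1, DH9 2 or 1n 2), and in DH14 4 fell and 1 rose (11.8% and 12.2%). The numbers that fell were 4 in DH6 without DH6 III, 2 in sDH without sDH II, 1 in DH14 without DH14 1, and 2 in DH14 without DH14 2, 1n 1 or any DH6 or DH9 library.

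Of 7 genes for kinases, phosphatases and membrane curvature, 3 fell in 2n against 1n, with the same background of 19.9%. STN7, the kinase that phosphorylates the antenna of photosystem II, changed by -1.45 ± 0.083 (adjusted p = 6.76e-07), and against 1n it also fell by 0.92 in DH6, by 0.78 in DH9, by 0.32 in DH14 (lost without DH14 1, DH14 2 or 1n 1, with adjusted p of 0.102, 0.0697 and 0.0852) and by 0.83 in sDH. Of 14 genes for electron carriers and ATP synthase, 10 fell and 1 rose in 2n against 1n (median -0.49), beside 19.9% and 21% of all genes. PGR5, a protein of cyclic electron flow, changed by -1.38 ± 0.11 (adjusted p = 5.35e-06) and the ferredoxin gene FD1 by -0.996 ± 0.16 (adjusted p = 0.000574; -0.65 without 1n 1), while LFNR2, a ferredoxin reductase, rose by 0.63 ± 0.10 (adjusted p = 0.000406). Of these 14, 8 fell in DH6 and in sDH and 7 in DH9 and in DH14 against 1n, while 1 rose in each. Of all genes, 24.5% fell and 22.6% rose in DH6, and 24.4% fell and 24.1% rose in sDH. In DH9 14.8% fell and 15.5% rose, and in DH14 11.8% fell and 12.2% rose. The largest log2 change among the 14 was that of LFNR2 in DH6 (0.73) and DH9 (0.57), of PETE1 in DH14 (0.41) and of PETM in sDH (0.31). The numbers that fell were 5 in DH6 without DH6 III, 4 in sDH without sDH II, 4 in DH9 without DH9 1 and 3 in DH14 without DH14 1.

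Transcriptional regulators of chloroplast genes fell in 7 of 10 cases in 2n against 1n, with a median of -1.23, where 19.9% of all genes fell. GLK2, with GLK1 an activator of antenna and chlorophyll synthesis genes, had 129.5 and 114 CPM in DH6, 44.5 and 51.1 in DH9, 107 and 130.3 in DH14, 159 and 139.6 in sDH, 20.4 and 15.6 in 2n, and 138 and 109 in 1n. The 2n libraries were the lowest, and GLK2 changed by -2.78 ± 0.17 (adjusted p = 1.03e-06) in 2n and by -1.37 ± 0.16 (adjusted p = 0.000152) in DH9 against 1n. SIG5, a light-induced sigma factor of the plastid RNA polymerase, changed by -4.58 ± 0.28 (adjusted p = 1.06e-06) and HYH, a bZIP factor of light signalling, by -3.38 ± 0.35 (adjusted p = 2.76e-05) in 2n against 1n. Against 2n, 6 of the 10 regulators rose for DH6 (3 without DH6 II or 2n 2), 3 for DH9 (6 without either 1n library), 6 for DH14 and 7 for sDH, where 11.9, 8.66, 12.7 and 15.4% of all genes rose in that order. LHCB7, ELIP1 and ELIP2, relatives of the antenna family, all fell in 2n against 1n, with log2 changes of -1.001, -4.22 and -5.16 in that order.

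Clock genes also differed among these groups. CCA1, a transcription factor of the morning that is known to bind LHCB promoters, had 18.1 and 15.4 CPM in DH6, 22.3 and 23.2 in DH9, 88.2 and 99.96 in DH14, 88.5 and 57.6 in sDH, 1.03 and 1.02 in 2n, and 178 and 71.2 in 1n. LHY, its close relative, had 5.89 and 3.65 CPM in DH6, 14.5 and 17.1 in DH9, 61.1 and 65.3 in DH14, 39.1 and 24.3 in sDH, 0.394 and 0.428 in 2n, and 176 and 38.9 in 1n. By group means, both ran in the order 2n, DH6, DH9, sDH, DH14 and 1n from low to high. LHCB2.3 was the 1 gene of the 43 with that order of group means. For CCA1 and LHY the top place of 1n rested on 1n 1, since 1n 2 lay below both DH14 libraries. The CCA1 libraries of sDH, DH14 and 1n overlapped. The evening gene TOC1 ran nearly the other way, with 2n highest and 1n lowest, and changed by 2.17 ± 0.18 (adjusted p = 7.34e-06) in 2n against 1n. ELF4 was also highest in 2n and lowest in 1n, with means of 71.0 and 3.07 CPM. GI was lowest in 1n (51.8 CPM), but its mean was 102 CPM in 2n, below DH6 (124) and DH9 (122). PRR7 had a mean of 103 CPM in 2n and group means of 196 (DH9) to 231 (1n) elsewhere. The part of the hour of harvest or of the clock in the changes of the 43 genes was not tested.

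Markers of leaf cells moved with some groups too. The sum of RBCS1A, RCA and CA1 was 37124 to 37729.5 CPM in DH6, 39919 to 41641 in DH9, 43441 to 43623 in DH14, 31823 to 35299 in sDH, 32441 to 32706 in 2n and 46270.2 to 51130.1 in 1n. Against 1n, all 3 genes fell in 2n, DH6 and sDH, and 2 of the 3 in DH9 and in DH14. Of all genes tested, 19.9% fell in 2n, 24.5% in DH6, 24.4% in sDH, 14.8% in DH9 and 11.8% in DH14. The 2 phloem markers summed to 159 to 169.6 CPM in DH6, 207 to 225 in DH9, 195 to 201 in DH14, 116 to 131 in sDH, 134 to 139 in 2n and 151 to 178 in 1n. These sums were mostly SUC2, with a mean of 193 CPM in DH9 and 138 in 1n, while APL had 23.2 and 27.0. Against 1n, the SUC2 mean was higher and the APL mean lower in DH6, DH9 and DH14. Both means were lower in 2n and sDH. Guard cell and trichome markers (4 genes) summed to 67.7 to 95.3 CPM over all libraries, and root markers (9 genes) to 30.0 to 51.6 CPM. The guard cell and trichome genes did not move together: GL2 and FAMA had higher means in 2n than in 1n, and MYB60 and KAT1 lower ones. Of 5 flower markers 4 lay under 1 CPM in every library, and their sum was 2.21 and 3.09 CPM in 1n and 0.274 to 1.44 CPM elsewhere. The part of such tissue differences in the changes of the 43 genes was not tested.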

How the data were processed

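Whole-number read counts per gene were deposited by the authors in 5 gene tables. HISAT2, Subread, DESeq2 and the TAIR10 genome are named in the submitters' processing notes. Which annotation and strand setting the counting had, and what was done with reads matching several copies, is not given in the sources used here. The tables were joined on the gene identifier. Columns named WT were taken as 2n, since no other group was left for them, and DH6 and sDH columns keep the numerals II and III that they carry. In the sDH gene table both 1n columns are the same library, so 1n was read from the other tables. The 12 DNA methylation samples and the tables of transposable elements were not used here.

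In R 4.3.3, edgeR 4.0.16 (with limma 3.58.1) was run on the deposited counts. Genes were filtered by filterByExpr (minimum count 10, minimum total 15), which left 19201, and scaled by TMM (factors 0.956 to 1.06). One quasi-likelihood model with a mean per group was fitted to all 12 libraries, and p-values were adjusted by Benjamini-Hochberg over all genes tested, in each comparison; a gene rose, fell or passed at an adjusted p under 0.05. The SE is the absolute log2 change over the square root of F. The procedure was tested on simulated data. Each library held 16484799 to 22146896 gene counts, and even the lowest of the 43 genes averaged 76.2 CPM.

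Genes named with their level in each library are, in each comparison against 1n or 2n, the 4 lowest and the 2 highest log2 changes among those that passed, and the gene with the highest mean in each role group. Other genes are given by counts and changes. The 43 genes, the lists and this rule were chosen with earlier results of these data known. Symbols came from the files' identifiers through RefSeq names (TAIR10.1), which matched all 43 and 26719 of the 27416 genes. No sequence or coordinate was used. Alternatives were DESeq2 size factors, total counts, no filter, the DESeq2 1.42.0 test, only the groups compared, a replicate block, summed copies, and each library left out; the closing section gives their effect.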

Additional observations from a re-analysis of the deposited data

How the results depend on the processing

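No gene among the 43 that passed changed its sign in any setting, and of 33 log2 changes of genes named by the rule, 30 kept their call throughout. Fitting only the groups compared gave 25 genes in 2n against 1n, 13 in DH6, 11 in DH9 and 12 in sDH against 1n, 18 in DH6 against DH9, 29 in DH6 against DH14, 12 in DH9 against DH14 and 30 in the F-test among the lines; fewer libraries then set the spread. Scaling by total counts gave 10 in DH6 against DH9 and moved the median of all genes in 2n against 1n to 0.13 and that of the 43 genes to -0.49. With no filter on low counts, DH6 against DH9 had 8 and DH9 against DH14 had 10. Summed copies gave 3 in DH9 against DH14. Over all genes tested, the number called also moved in 40 cases of a comparison and a setting, left-out libraries included, and stayed much the same in 209. The shares of all genes given above are those of the main fit, so a moved count need not be particular to the 43 genes. The cause of these moves was not tested.

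With each library left out in turn, counts ran from 31 to 39 (2n against 1n), 12 to 24 (DH6 against 1n), 11 to 23 (DH9 against 1n), 3 to 12 (DH14 against 1n), 13 to 23 (sDH against 1n), 17 to 32 (DH6 against 2n), 16 to 28 (DH9 against 2n), 21 to 29 (DH14 against 2n), 19 to 30 (sDH against 2n), 0 to 12 (DH6 against DH9), 4 to 23 (DH6 against DH14), 2 to 10 (DH9 against DH14), 6 to 23 (F-test among the lines) and 33 to 41 (F-test among 6 groups). A group left with 1 library is then assumed to vary like the others.

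Replicate numbers are shared by 1n, 2n, DH9 and DH14 in labels and columns. The correlation of same-numbered deviations was above 0.1 between 1n and 2n (0.134), 1n and DH14 (0.119) and 2n and DH14 (0.107), and below 0 for DH9 with 1n (-0.183), 2n (-0.122) and DH14 (-0.0249). Since not every pair lay above 0.1, the numbers were not taken as pairing the samples. A replicate block gave 33 in 2n against 1n, 17 in DH9 and 5 in DH14 against 1n, 19 in DH9 and 24 in DH14 against 2n, and 2 in DH9 against DH14. The same 8 libraries without the block, an alternative added after seeing the data, gave 34, 18, 6, 22, 25 and 4.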
